A study of Sus scrofa with 16 samples.

Results

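The goblet cell, trefoil and mucus genes described here were SPINK4, TFF2, TFF3, CLCA1 and KLF4, measured in the small intestine of preterm piglets. They were chosen by gene symbol: every probe set annotated with 1 of these 5 symbols was taken. SPINK4 had 2 such probe sets and the other genes 1 each, which made 6 probe sets of 23999, and 5 genes of 6765 with a probe set of their own. All 6 passed the filter on dim probe sets (a log2 value above 5 on at least 4 of the 16 arrays), which 11538 probe sets passed. TFF2 passed it on 5 arrays, all from control piglets, so it could be tested only because of the group in which it was high.

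The piglets, crosses of Landrace, Large white and Duroc, came from 2 sows by caesarean section on gestation day 105. All received parenteral nutrition with small enteral amounts at first and enteral formula from day 3. The treated group was given ampicillin, gentamicin and metronidazole, by mouth and into the muscle, 2 times a day from birth, and the control group, titled untreated in the sample names, was given saline instead. On day 5 tissue was taken from a proximal and a distal segment, and RNA of whole tissue was hybridised to a porcine Affymetrix array. This gave 4 groups of 4 arrays: control proximal (animals 83, 88, 89 and 92), antibiotics proximal (86, 87, 95 and 98), control distal (83, 88, 89 and 92) and antibiotics distal (85, 86, 87 and 95). The number in a sample name was read as the animal's, so 7 of 9 animals gave both segments.

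Goblet cells are the mucus-secreting cells of the intestinal epithelium. They release gel-forming mucin together with small secreted partners, and the mucus layer keeps luminal bacteria away from the epithelial surface. CLCA1 is a secreted metalloprotease of goblet cells that processes mucus. SPINK4 is a Kazal-type protease inhibitor of goblet cell granules, known in the pig as PEC-60. TFF3 and TFF2 are trefoil factors, small disulphide-linked peptides secreted with mucins that aid the repair of the epithelium. TFF3 is the trefoil peptide of intestinal goblet cells, while TFF2 is known mainly from mucous cells of the stomach and of Brunner's glands in the duodenum. KLF4 is a zinc finger transcription factor of differentiated epithelial cells that goblet cell maturation in the colon requires, and it is also made in other cell types. In the RefSeq gene table for assembly Sscrofa11.1 TFF3, TFF2 and TFF1 follow each other with no gene between them, next to ABCG1.

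Values are log2 GCRMA values with a floor near 2.14, and between 45.1% and 46.5% of the probe sets of an array lay above 5. A probe set's level cannot be set against another's, so levels were compared only between arrays. In whole tissue fewer cells of a type and less RNA per cell cannot be told apart. Some control arrays stood apart in markers of position along the intestine or of epithelium. The mean over 5 proximal segment markers was 8.92 on control distal arrays 83 and 88, against 6.27 and 7.82 on 89 and 92 and 6.82 to 6.99 on antibiotics distal arrays. Not all of these markers moved together. LEAP2 lay at 12.13 and 11.83 on control distal arrays 83 and 88, against 3.76 and 7.57 on 89 and 92. GATA4 did not set 83 and 88 apart, at 2.42 and 2.29, against 2.80 and 2.63 on 89 and 92. Distal segment markers did not set control distal arrays 83 and 88 apart, with means over 4 markers of 8.11 and 8.71, against 8.65 and 7.91 on 89 and 92. FABP6, an ileal bile acid-binding protein among these 4, was even higher on 83 and 88 (11.03 and 10.17) than on 89 and 92 (7.32 and 6.64). In proximal tissue FABP6 lay at 7.40 on control array 88 and at 2.32 to 3.49 on the other control arrays. The mean over 9 epithelial markers was 11.60 and 12 on control proximal arrays 83 and 92 and at most 11.24 on any other array. As a measure of RNA integrity the 3′ value of actin and GAPDH control probe sets was subtracted from the 5′ value, and the treatments overlapped in it. Treated proximal arrays had -3.43 ± 0.65 and control ones -3.79 ± 0.89 (SD, n = 4 for both groups, exact two-sided permutation test, p = 0.543). Treated distal arrays had -4.70 ± 0.90 and control ones -4.28 ± 0.46 (p = 0.457 by the same exact test).

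The comparison the study was built on is antibiotics against control within a segment. In proximal tissue all 6 probe sets had lower means with antibiotics, with a median difference of -0.59 on the log2 scale, and in distal tissue 4 of 6 did, with a median of -0.39. The median over all tested genes was -0.06 in proximal and 0.02 in distal tissue. None of the 6 passed a limma adjusted p of 0.05 in either segment (0 of 6 each), where 0.147% and 2.12% of all tested probe sets passed. At an unadjusted p under 0.05 there were 4 of 6 in proximal tissue and 2 of 6 in distal tissue, against 12.9% and 15.8% of all tested probe sets. On 1 mean per animal over both segments 0 of 6 passed, against 0.347% of all, and 3 of 6 had an unadjusted p under 0.05, against 16.1% of all. TFF2 is among the 4 and among the 3, and as its control arrays alone brought it past the filter, its place there is no support for a difference.

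Along the intestine CLCA1 and SPINK4 were higher in the distal than in the proximal segment of treated piglets. These 2 of 6 probe sets passed the threshold, where 5.25% of all tested probe sets passed. In control piglets 0 of 6 passed, against 0.364% of all, and 1 of 6 had an unadjusted p under 0.05, against 7.99% of all. The test of whether the antibiotic effect differed between segments passed for 0 of 6, against 0.191% of all, with 1 of 6 at an unadjusted p under 0.05, against 6.62% of all.

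**Figure D1:**
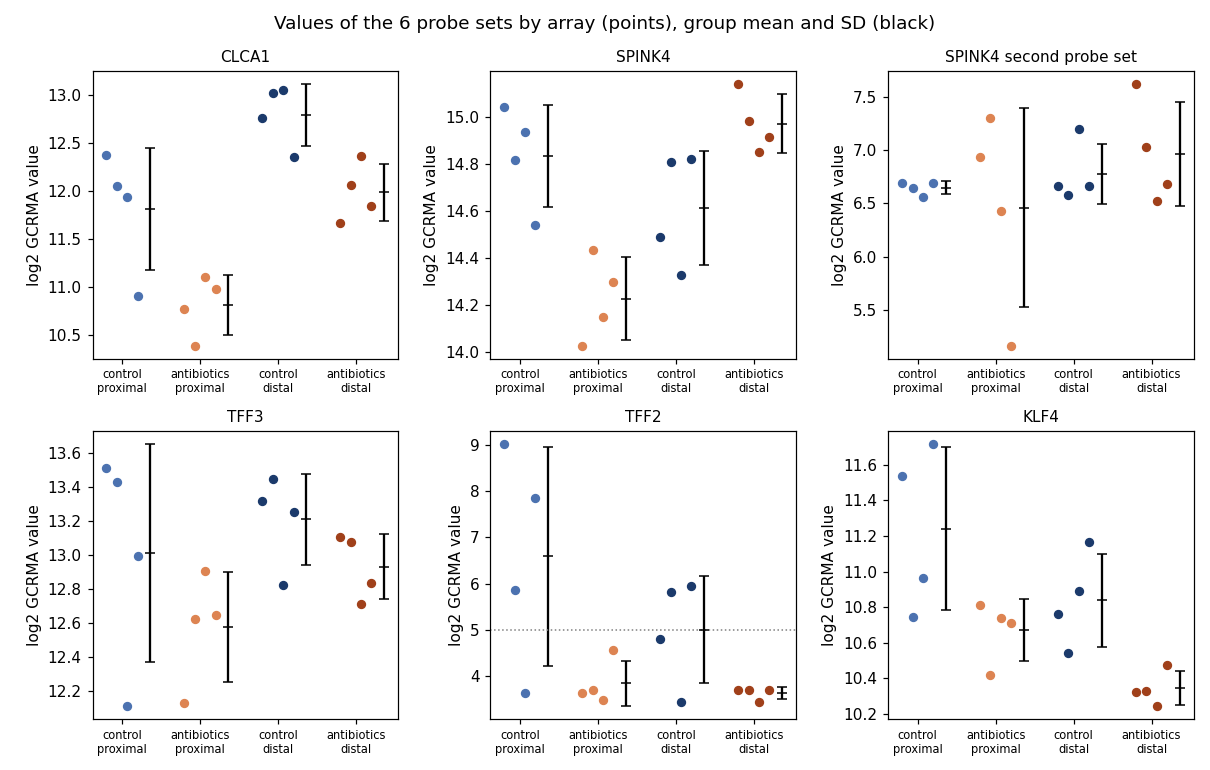
Log2 GCRMA values (vertical axis) of the 6 probe sets in the 4 groups, with 1 point per array in the order of animal number and the group mean with its SD in black; the dotted line for TFF2 is the filter level of 5. CLCA1 is lowest in treated proximal tissue (10.39 to 11.11), SPINK4 is lowest there too (14.03 to 14.43), and TFF2 lies above 5 on control arrays only.

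CLCA1, the mucus-processing protease, was lower with antibiotics in both segments and higher distally in both treatments. In proximal tissue it lay at 12.37, 12.05, 11.93 and 10.91 in control animals 83, 88, 89 and 92. In treated animals 86, 87, 95 and 98 it lay at 10.77, 10.39, 11.11 and 10.98. Control animal 92 lay among the treated animals, and the other 3 controls lay above all of them. The difference was -1.0 (SE 0.30, 95% interval -1.63 to -0.37), a 2.00-fold lower level, with an unadjusted p of 0.00384 and a limma adjusted p = 0.183. Without control proximal array 92 it was -1.30 (adjusted p = 0.136).

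In distal tissue CLCA1 lay at 12.75, 13.02, 13.04 and 12.35 in control animals 83, 88, 89 and 92. In treated animals 85, 86, 87 and 95 it lay at 11.67, 12.07, 12.36 and 11.85. The groups touched at 1 point, where treated animal 87 and control animal 92 had nearly the same value. The difference was -0.81 (SE 0.30, 95% interval -1.43 to -0.18), with an unadjusted p of 0.015 and a limma adjusted p = 0.184. On animal means over both segments the 3 treated animals had a mean of 11.43 and the 4 controls a mean of 12.30. That difference was -0.88 (SE 0.26) with an adjusted p = 0.176. The effects in the segments differed by 0.19 (95% interval -0.69 to 1.08, adjusted p = 0.964).

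Within each of the 7 animals with both segments CLCA1 was higher distally. The step was 0.38, 0.97, 1.11 and 1.45 in control animals 83, 88, 89 and 92, and 1.29, 1.97 and 0.74 in treated animals 86, 87 and 95. Of all tested probe sets 4.34% were higher distally in all 7. Over the groups CLCA1 rose from 10.81 ± 0.31 to 11.99 ± 0.30 in treated tissue (SD, n = 4 each), and the groups did not overlap, as for 7.69% of all tested probe sets. The difference of 1.17 (SE 0.30) is 2.25-fold (limma adjusted p = 0.0301). In controls it was 0.98 (SE 0.30, unadjusted p of 0.00459, adjusted p = 0.265), and the arrays overlapped there. With the animal as a fixed replicate block the treated difference was 1.33 (adjusted p = 0.0487), and in a fit of only the animals with both segments it was 1.33 (adjusted p = 0.0552). The call was lost in 8 of 20 alternatives: that fit, the fit without a filter on dim probe sets (adjusted p = 0.0683), the fit with the RNA integrity measure as a covariate (1.14, adjusted p = 0.118), and 5 of the 8 fits that left out 1 treated array (without proximal array 86 or 87 or distal array 86, 87 or 95 the adjusted p = 0.0624, 0.0773, 0.084, 0.0943 and 0.0586). The RNA integrity measure was itself lower distally in all 3 treated animals (-3.44 and -4.75 in 86, -4.35 and -5.72 in 87, -3.0 and -3.54 in 95, proximal first).

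**Figure D2:**
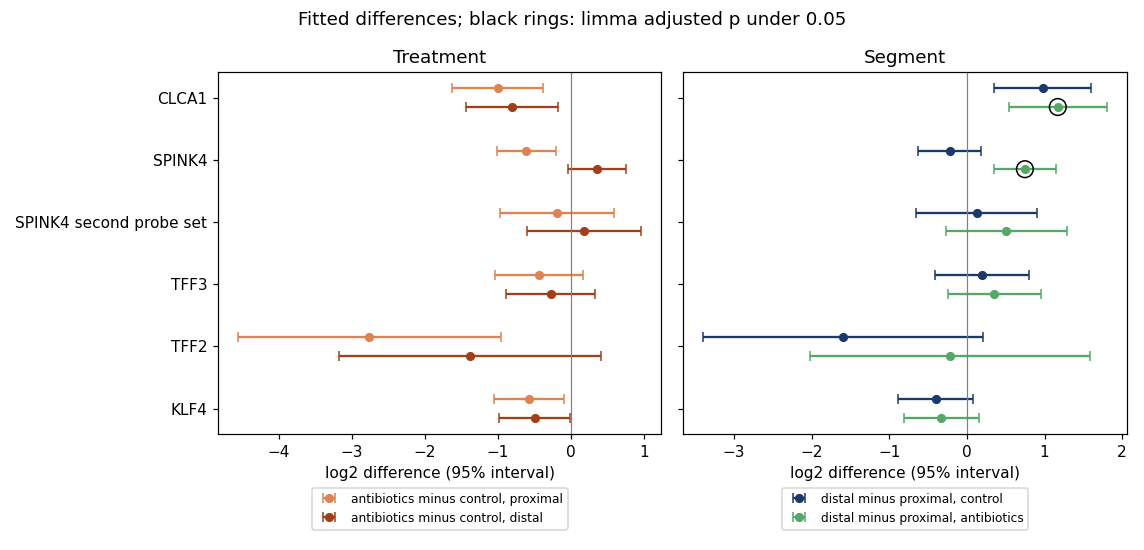
Fitted log2 differences (horizontal axis) with 95% intervals for the 6 probe sets, by treatment within each segment (left) and by segment within each treatment (right). The black rings mark the 2 differences past the limma threshold, CLCA1 and SPINK4 between the segments of treated piglets, and the TFF2 intervals by treatment are descriptive because the filter rested on its control arrays.

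SPINK4, the goblet cell protease inhibitor, had 2 probe sets of unlike brightness, with means of 14.66 and 6.71 over all arrays. Its brighter probe set lay at 15.04, 14.82, 14.94 and 14.54 in proximal tissue of control animals 83, 88, 89 and 92. It lay at 14.03, 14.43, 14.15 and 14.30 in treated animals 86, 87, 95 and 98, below every control. Of all tested probe sets 1.74% were lower without overlap in this comparison. The difference was -0.61 (SE 0.19, 95% interval -1.01 to -0.21), with an unadjusted p of 0.00548 and a limma adjusted p = 0.197.

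In distal tissue the order was the opposite. SPINK4 lay at 14.49, 14.81, 14.33 and 14.82 in control animals 83, 88, 89 and 92, and at 15.14, 14.98, 14.85 and 14.92 in treated animals 85, 86, 87 and 95. Every treated array lay above every control array, by a margin of 0.03 between treated animal 87 and control animal 92, as for 6.4% of all tested probe sets. The difference was 0.36 (SE 0.19, 95% interval -0.04 to 0.76, adjusted p = 0.383). The estimated antibiotic effect thus differed by 0.97 between the segments (SE 0.27, 95% interval 0.40 to 1.54). Its unadjusted p of 0.00235 was the 96th smallest of 11538, and the limma adjusted p = 0.282 did not pass. Of 29 alternatives 1 passed, that with array quality weights (1.02, adjusted p = 0.037), which raised the calls over all probe sets from 22 to 210. Over the 29 the adjusted p went up to 0.593. On animal means over both segments the difference was -0.16 (SE 0.16, adjusted p = 0.656).

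From proximal to distal tissue SPINK4 rose in treated piglets, from 14.23 ± 0.18 to 14.97 ± 0.13 (SD, n = 4 each), by 0.75 or 1.68-fold (SE 0.19, limma adjusted p = 0.0307). The groups did not overlap, as for 7.69% of all tested probe sets. The step was 0.96, 0.42 and 0.77 in treated animals 86, 87 and 95. In control animals 83, 88, 89 and 92 it was -0.55, -0.01, -0.61 and 0.28, and the control groups differed by -0.22 (SE 0.19, adjusted p = 0.902). With the animal as a fixed replicate block the treated difference was 0.71 (adjusted p = 0.17), and with the RNA integrity measure as a covariate it was 0.70 (adjusted p = 0.126). With only the animals that gave both segments the adjusted p = 0.106, and with only the 8 arrays compared it was 0.0554. It also did not pass without proximal array 86 or 95 or distal array 85, 86 or 95 (adjusted p = 0.0794, 0.0911, 0.102, 0.0836 and 0.0648).

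The second, dimmer probe set of SPINK4 did not repeat this separation. Its lowest and highest values over all 16 arrays were 5.17 and 7.62. It lay at 6.65 ± 0.06 in controls and 6.46 ± 0.93 with antibiotics in proximal tissue, and at 6.78 ± 0.28 and 6.96 ± 0.48 in distal tissue (SD, n = 4 each). The groups overlapped in both segments, and the differences of -0.19 and 0.19 (95% intervals -0.97 to 0.59 and -0.59 to 0.97) had adjusted p-values of 0.878 and 0.864 in limma. Its intervals include the differences of the brighter probe set.

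**Figure D3:**
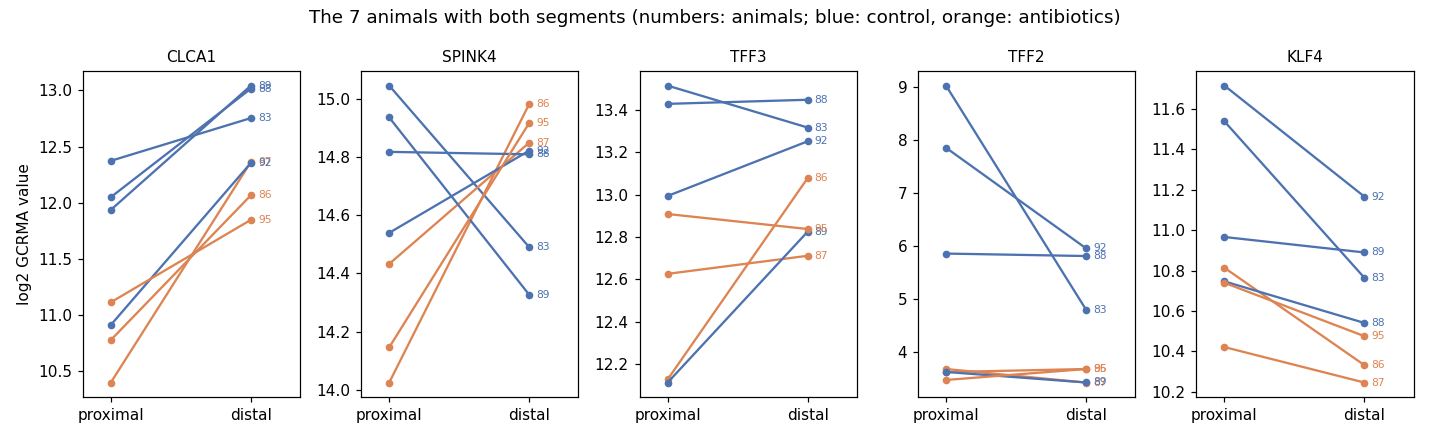
Log2 GCRMA values (vertical axis) of the 5 genes, each at its brighter probe set, in the proximal and distal segment of the 7 animals with both, joined by a line per animal (blue control, orange antibiotics). CLCA1 is higher in the distal segment in 7 of 7 lines and KLF4 lower in 7 of 7, while SPINK4 is higher there in the 3 treated animals and in 1 of 4 controls.

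TFF3, the trefoil peptide of intestinal goblet cells, varied within a narrow range, from 12.11 to 13.51 over all arrays. In proximal tissue it lay at 13.51, 13.43, 12.11 and 12.99 in control animals 83, 88, 89 and 92 and at 12.13, 12.63, 12.91 and 12.65 in treated animals 86, 87, 95 and 98. Control animal 89 had the lowest value of all 16 arrays, and the other 3 controls lay above every treated animal. In distal tissue the controls lay at 13.32, 13.45, 12.83 and 13.25 and treated animals 85, 86, 87 and 95 at 13.11, 13.08, 12.71 and 12.84, with animal 89 again the lowest control and the only control among the treated values. The differences were -0.43 (95% interval -1.04 to 0.17, limma adjusted p = 0.566) and -0.28 (95% interval -0.88 to 0.33, adjusted p = 0.695), so a change of about 2-fold lower in proximal tissue lies at the edge of what these arrays leave possible. Between segments TFF3 differed by 0.20 in controls and 0.36 in treated tissue (adjusted p = 0.97 and 0.598).

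TFF2, the trefoil peptide known from gastric and Brunner's gland mucous cells, lay above the filter level of 5 only in control piglets. In proximal tissue it lay at 9.03, 5.86, 3.62 and 7.86 in control animals 83, 88, 89 and 92, and at 3.62, 3.68, 3.47 and 4.56 in treated animals 86, 87, 95 and 98. In distal tissue it lay at 4.80, 5.81, 3.42 and 5.96 in the controls and at 3.68, 3.68, 3.42 and 3.68 in treated animals 85, 86, 87 and 95. It was thus above 5 in at least 1 segment of 3 of 4 control animals and in 0 of 5 treated animals, and animal 89 was the control in which neither segment reached it. The proximal difference was -2.76, the distal difference -1.38 and that of the animal means -2.20. These are given as descriptions with no test, since TFF2 passed the filter only through the group in which it was high, and it was not past the threshold in any of them. As the treated values lie near the lower end of the scale, the size of these differences is not well determined.

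The TFF2 result rested on single control animals. Animal 89 was the low control. Without its proximal array the proximal difference was -3.75, and without the animal that of the animal means was -2.96. Without control proximal array 83 the proximal difference was -1.95, and without both 83 and 92, left out together after their values had been seen, it was -0.91. In the same setting the segment difference in controls, -1.59 with all arrays, was 0.26. TFF1, the neighbouring gastric trefoil gene, was not tested because it was dim. It lay at 7.12 and 7.19 on control proximal arrays 83 and 92, which also had the highest TFF2 values, and between 2.15 and 2.22 on the other 14 arrays. MUC4, a membrane mucin, lay at 6.89 on control proximal array 92 and at 2.14 on the other 15. The mean over 7 markers of gastric and Brunner's gland epithelium, 0 of which passed the filter, was 2.39 to 3.54 on control proximal arrays, 2.15 to 2.21 on treated proximal arrays, 2.15 to 2.5 on control distal and 2.15 to 2.27 on treated distal arrays. TFF1 is in that list. Of the others GIF, ATP4B and PGA5 reached 5.15, 5.29 and 4.02 among control proximal arrays, and ATP4B 4.57 among control distal arrays, while GKN1, ATP4A and GAST stayed below 3 on all arrays, and the part of such cells in the TFF2 values was not tested.

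KLF4, the transcription factor, had lower means with antibiotics and in distal tissue. In proximal tissue it lay at 11.54, 10.75, 10.97 and 11.72 in control animals 83, 88, 89 and 92 and at 10.81, 10.42, 10.74 and 10.71 in treated animals 86, 87, 95 and 98. Controls 83 and 92 were the highest of all 16 arrays, and control 88 lay within the treated range. The difference was -0.57 (SE 0.23, 95% interval -1.05 to -0.09, unadjusted p of 0.0234, limma adjusted p = 0.321). Without control proximal arrays 83 and 92 it was -0.18 (adjusted p = 0.999).

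In distal tissue KLF4 lay at 10.76, 10.54, 10.89 and 11.17 in the controls and at 10.32, 10.33, 10.24 and 10.47 in treated animals 85, 86, 87 and 95. All treated arrays lay below all control arrays, as for 6.31% of all tested probe sets. The difference was -0.50 (SE 0.23, 95% interval -0.98 to -0.01), a 1.41-fold lower level, with an unadjusted p of 0.0445 and a limma adjusted p = 0.298. The animal means were 10.50 in treated and 11.04 in control animals (-0.54, SE 0.23, adjusted p = 0.3). Distal values were below proximal ones in all 7 animals with both segments, by 0.08 to 0.78, which held for 2.7% of all tested probe sets. The segment differences of -0.40 in controls and -0.33 in treated tissue did not pass (adjusted p = 0.757 and 0.522).

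**Figure D4:**
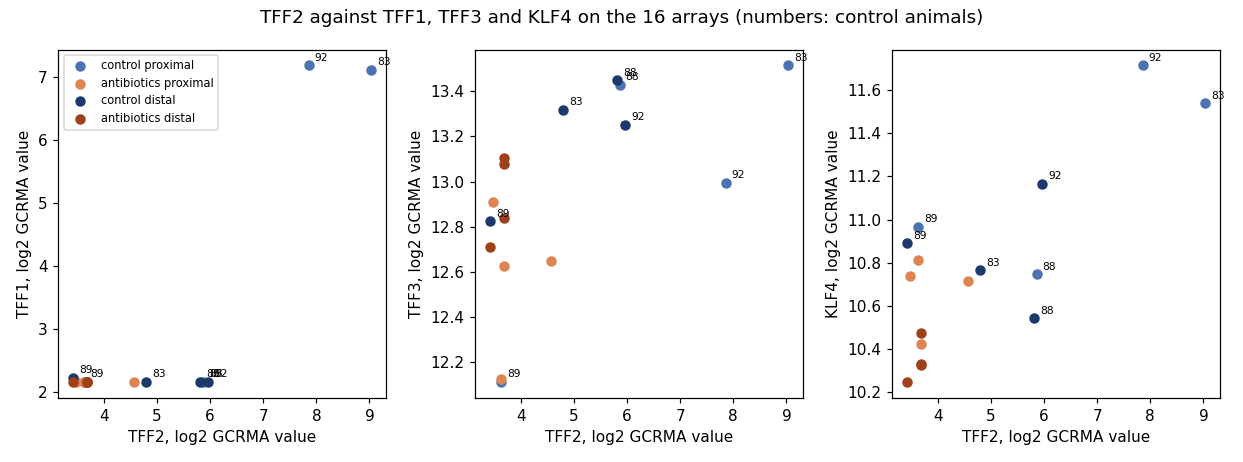
TFF2 (horizontal axis) against TFF1, TFF3 and KLF4 (vertical axes), all in log2 GCRMA values, with 1 point per array, the 4 groups in colour and numbers for control animals. Control proximal arrays 83 and 92 lie apart for TFF2, TFF1 and KLF4, while for TFF3 both arrays of control animal 89 lie lower than those of the other control animals.

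Across the 16 arrays, of which those of the same animal are not independent, the members did not follow each other closely. TFF2 and TFF3 had a Pearson r of 0.605 and a Spearman rho of 0.711, and r was 0.67 without control proximal arrays 83 and 92, the farthest from the TFF2 median. TFF2 and KLF4 had an r of 0.779 and a rho of 0.44, and without the same 2 arrays r was 0.382, so that relation rested in part on them. Over the 8 distal arrays alone their r was 0.584. CLCA1 and SPINK4 had an r of 0.446 over all arrays, 0.823 over the 8 proximal and -0.825 over the 8 distal arrays, where antibiotics and control differ in opposite directions for the latter gene. The other 7 of 10 pairs lay between -0.103 and 0.522. These are descriptions over groups that differ, with no test.

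The genes whose tested probe sets followed each member most closely over the 16 arrays were named by the highest Pearson r, from a search over all tested probe sets with a single gene. For TFF2 these were FAM3D (0.908), a secreted gut cytokine-like protein, CST6 (0.869), a cystatin protease inhibitor, and LDHB (0.868), a lactate dehydrogenase subunit. FAM3D, like TFF2, was highest on control proximal arrays 83 and 92 (6.17 and 6.69), and so was LDHB (14.25 and 13.94). CST6 was highest on array 83 (9.69) and next on control distal array 88 (9.13). As with TFF2, control arrays alone brought FAM3D past the filter, so its place in this search is no support for a relation. For KLF4 they were AURKA (0.931), a mitotic kinase, HSP70.2 (0.901), an inducible heat shock protein, and CASD1 (0.896), a sialic acid O-acetyltransferase. AURKA, like KLF4, was highest on control proximal arrays 83 and 92 (7.55 and 8.17). For TFF3 they were ZRANB2 (0.854), ANGEL2 (0.838) and LOC100739425 (0.832). For SPINK4 they were CDK5RAP1 (0.849), PPP1R3E (0.74) and DEFB1 (0.738), a beta-defensin. For CLCA1 they were TRIM52 (0.815), DNAJC6 (0.786) and ATP1B1 (0.775), a sodium pump subunit. After subtracting group means the r of these CLCA1 genes was 0.0036, 0.331 and 0.237, so those likenesses lay mostly in the group means. It was 0.476 to 0.548 for the SPINK4 genes, 0.779 to 0.809 for TFF2, 0.789 to 0.855 for TFF3 and 0.793 to 0.892 for KLF4. Subtracting group means leaves control proximal arrays 83 and 92 apart from the other arrays of their group. For these genes r without those arrays was not computed.

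Other genes of mucus production were read from lists of which only a part could be measured. MUC2, the gel-forming mucin of goblet cells, was not analysed here. Of 16 mucins 3 had a probe set (MUC1, MUC4 and MUC15) and 0 passed the filter. MUC19, outside that list, lay at 2.14 on all 16 arrays. Among 28 secreted goblet cell and mucus gel proteins 6 were tested, CLCA1 and SPINK4 included, and 0 passed in either treatment comparison. The median difference of that list was -0.45 in proximal and -0.68 in distal tissue, with 4 of 6 means lower in each. The mean over the 7 genes of the list that are not members was 7.23 to 8.01 on control and 6.52 to 6.91 on treated distal arrays, and overlapped in proximal tissue. Of these 7 genes 3 stayed under the filter level on all arrays. Of the other 4, PLAC8 had by far the largest distal difference (-4.37), and VAMP8 was slightly higher with antibiotics (12.94 in control and 13.10 in treated distal tissue). FCGBP, a large mucus gel protein that binds IgG, lay at 9.39 ± 0.33 in control distal and 8.39 ± 0.61 in treated distal tissue (SD, n = 4 each), a difference of -0.99 that did not pass (limma adjusted p = 0.153). Between the segments of treated piglets FCGBP went the other way from CLCA1 and SPINK4, with a difference of -1.16 (adjusted p = 0.0598). PLAC8, a small cysteine-rich protein, lay at 8.90 ± 2.27 in control distal and 4.53 ± 0.87 in treated distal tissue (SD, n = 4 each), a difference of -4.37 that did not pass (SE 1.12, limma adjusted p = 0.0561).

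Of 58 genes of mucin O-glycosylation and folding, the enzymes that build and fold mucins in the secretory pathway, 17 were tested and 0 passed in any comparison. Their median was -0.47 in proximal and -0.29 in distal tissue, with 13 and 12 of 17 means lower with antibiotics. Of 30 goblet lineage and Notch genes 10 were tested and 0 passed by treatment. Between segments GATA4, a transcription factor of the proximal small intestine, was lower in distal tissue of both treatments (-3.09 in controls and -3.06 in treated). It lay at 4.89 to 6.39 on control and 3.79 to 6.97 on treated proximal arrays. On distal arrays it lay near the floor, at 2.29 to 2.80 in controls and 2.28 to 2.38 in treated tissue. Proximal arrays alone brought it past the filter, so its differences are descriptions with no test. JAG1, a Notch ligand, was higher in distal tissue of treated piglets by 1.70 (adjusted p = 0.0437). Among 8 tested genes of mucus hydration GUCA2A, the precursor of guanylin, was higher distally in both treatments (3.77 and 2.71, adjusted p = 0.000295 and 0.00242). SLC26A3, the chloride and bicarbonate exchanger, was higher distally by 6.10 in treated piglets (adjusted p = 0.00373).

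The treatment differences were also computed without the control arrays that stood apart, each set against the value with all arrays given above. Without control distal arrays 83 and 88 the distal difference was -0.71 for CLCA1, 0.40 for SPINK4, -0.11 for TFF3, -1.08 for TFF2 and -0.68 for KLF4. Without control proximal array 88 the proximal difference was -0.92 for CLCA1, -0.61 for SPINK4, -0.30 for TFF3, -3.0 for TFF2 and -0.74 for KLF4. Without control proximal arrays 83 and 92 it was -1.18 for CLCA1, -0.65 for SPINK4 and -0.19 for TFF3. Each kept its direction, none passed the threshold, and the values of TFF3 in either segment and of TFF2 and KLF4 in proximal tissue moved by more than 1.5 times in some of them.

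Marker lists of other cells also differed between treatments. The mean over 6 neutrophil markers was 4.74 to 6.23 on control and 3.60 to 4.23 on treated proximal arrays, and 4.76 to 6.92 and 3.34 to 3.69 in distal tissue, without overlap in either. That over 11 enterocyte markers was 12.17 to 13.90 on control and 13.54 to 14.27 on treated proximal arrays, and 12.29 to 13.26 and 11.99 to 12.32 in distal tissue. The ranges overlapped in both segments, with control proximal array 88 (13.90) and control distal array 89 (12.29) within the treated ranges. The mean over 9 epithelial markers overlapped between treatments in both segments (10.69 to 12 and 10.50 to 11.13 in proximal, 10.66 to 11.24 and 10.51 to 10.72 in distal tissue). The mean over 3 Paneth cell and antimicrobial markers was 7.23 to 9.44 on control and 5.75 to 6.24 on treated proximal arrays, and 8.13 to 9.01 and 5.95 to 7.07 in distal tissue. That over 4 tuft cell markers was 5.04 to 5.61 and 4.58 to 4.90 in proximal, and 4.99 to 5.29 and 4.17 to 4.63 in distal tissue, so both means were lower with antibiotics without overlap. Of 8 listed Paneth cell and antimicrobial genes only 3 had a probe set, DMBT1, PIGR and DEFB1. In distal tissue DMBT1 fell from 13.42 in control to 9.22 in treated tissue and PIGR from 5.14 to 2.32, while DEFB1 was higher with antibiotics (6.85 and 7.74). The macrophage (6.51 to 6.77 and 4.65 to 5.32, 7 genes) and proliferation (7.71 to 7.93 and 7.02 to 7.53, 7 genes) means separated in distal tissue alone. Those of endothelial, smooth muscle, enteroendocrine and pancreas markers overlapped between treatments in both segments. Dim genes enter these means: 3 of 6 neutrophil, 2 of 4 tuft, 5 of 7 macrophage and 5 of 7 proliferation genes passed the filter. Of all tested probe sets 1.74% were lower with antibiotics without overlap in proximal tissue and 6.31% in distal tissue. The share for means over lists was not counted. The part of the cell makeup in the members' values was not tested.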

How the data were processed

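The values the authors deposited are log2 values, 1 per probe set and array. The submitters' processing notes name GCOS 1.2, GCRMA and limma, with settings not given in the sources used here. Per the labels' protocols RNA was extracted with Trizol and RNeasy columns and labelled with a 3′ IVT kit. The array's 124 control probe sets, of 24123 in all, did not enter. Names came from the platform annotation (10069 probe sets with 1 gene, 198 with several, 13732 with none). Where a gene had several probe sets, the brightest on average stood for it. Group means over all 16 arrays, and separately 1 mean per animal (3 treated, 4 control), were fitted with limma 3.58.1 (lmFit, eBayes) in R 4.3.3, without a block, and Benjamini-Hochberg adjustment covered the 11538 probe sets tested. These p-values set a difference against the spread between arrays within groups, or for the animal means between animals. Those between segments take no account of arrays that come from the same animal. The fit was tested on simulated data.

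The number of arrays limits the precision. Nothing says how litters were spread over the arrays. Same-numbered arrays were taken as the same animal from the sample names. The correlation of their residuals was 0.0293 to 0.526, above 0.1 in 5 of 7 animals. The members and gene lists were chosen with earlier results of these data known. The genes named are the 5 members, members of the lists past the threshold in some comparison, and the 3 most alike by Pearson r for each member. FCGBP, PLAC8, VAMP8, MUC2, TFF1, the other mucins, FABP6, LEAP2, the gastric markers and the Paneth cell and antimicrobial markers were chosen for mention after their values were seen. No sequence is printed, as no sequence table was used here. Alternatives were other filters, normalizations, weights, thresholds, covariates and blocks (duplicateCorrelation with statmod 1.5.0, correlation 0.172), and each array left out in turn. Figures were drawn with matplotlib 3.10.9.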

Additional observations from a re-analysis of the deposited data

Results flagged for a closer look

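SPINK4 was flagged at its brighter probe set because the treatment differences, neither of which passed, had opposite directions in the segments. Every treated proximal array lay below, and every treated distal array above, all control arrays of the segment. The second probe set did not repeat this. Of all tested probe sets 1.74% were lower without overlap in proximal tissue and 6.4% higher without overlap in distal tissue. The share with both was not counted. The difference of the effects was 0.97 on the log2 scale, and the test of it did not pass (limma adjusted p = 0.282).

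In 24 groups of 4 arrays, 2 held an array far from the other 3 by Dixon's criterion, which chance does in about 1 of 20 groups. The second SPINK4 probe set lay at 7.20 in control distal animal 89, against 6.58 to 6.67 in the others. TFF2 lay at 3.42 in antibiotics distal animal 87, against 3.68 in all 3 others, all of them below the filter level.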

How the results depend on the processing

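Of the 6 probe sets, 2 passed between the segments of treated piglets. That count was 1 without a filter on dim probe sets, 0 with the RNA integrity measure as a covariate, 0 with only animals that gave both segments, 1 with the animal as a fixed replicate block and 1 with only the 8 arrays compared. It ranged from 0 to 2 with 1 array left out. CLCA1 passed there in 12 of 20 alternatives and SPINK4 in 11 of 20, and with the animal as a random replicate block both passed (adjusted p = 0.0142 and 0.0206). Among these alternatives the looser threshold of 0.10 could not lose a call. Array quality weights gave 2 calls by treatment in distal tissue (CLCA1 and KLF4), 2 in proximal tissue (SPINK4 and TFF2), 1 for the difference of effects (SPINK4) and 2 on animal means (CLCA1 and TFF2). With 1 array or animal left out, the count was 0 to 1 in proximal tissue and 0 to 1 on animal means, with TFF2 the 1 when the low control 89 was left out. Calls of TFF2 by treatment are no support, since its control arrays decided the filter. The cause of these changes was not tested.

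For CLCA1, SPINK4 at its brighter probe set, TFF3, TFF2 and KLF4, the direction of the treatment difference in each segment was the same in all alternatives run. That of the second SPINK4 probe set was not (18 of 20 in each segment). TFF2 could not be tested with the filter at 7. Over all tested probe sets the number of calls was unstable: 245 in distal tissue became 106 to 353 with 1 array left out and 138 to 1665 with other settings, and 17 in proximal tissue became 2 to 556 (the highest without control proximal array 88) and 0 to 951. GCRMA values near the floor bound what can be said of TFF2 and TFF1.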
